A study of Mus musculus with 11 samples.

Results

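The intergenic accessible regions that lay more than 10 kb and at most 100 kb from the nearest transcript start were described here. Accessible chromatin had been mapped by ATAC-seq, in which the transposase Tn5 cuts open DNA, in 11 cultures of the mouse line MPC2, a mesenchymal progenitor line that is conditionally immortalised and can be differentiated into osteocyte-like cells. The groups were 3 undifferentiated (MSC) cultures given the vehicle DMSO, 3 MSC cultures given FG-4592, 2 osteocyte cultures given DMSO and 3 osteocyte cultures given FG-4592, where osteocytes had been differentiated for 3 weeks and FG-4592 (Roxadustat), an inhibitor of the prolyl hydroxylases that mark HIF proteins for degradation, was present at 50 uM for 48 h. All groups shared the immortalised background and came from a single line, so that line-specific features cannot be told apart from features of the cell type. Of the 94963 regions in the deposited list, 18772 overlapped no gene of any type in GENCODE vM21 (mm10) and had an edge within these distances, which was 19.8% (95% Wilson interval 19.5% to 20.02%, counting error only).

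The list held 1 value per region, read as the log2 CPM (Tn5 cuts in the region relative to all counted cuts) averaged over all cultures and termed the level below. No value per culture was available in it, so the depth and the replicate error were unknown. From this list alone, neither the effect of FG-4592 nor that of differentiation could be compared. Every number below therefore describes the pooled list, and counts are used without a test.

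Distal intergenic regions of open chromatin include enhancers, which are stretches of DNA where transcription factors bind and from which they act on promoters over long distances, and insulators, which are bound by CTCF and separate chromosomal domains. In the skeletal lineage, enhancers of this kind are occupied by RUNX factors, by AP-1 (dimers of the FOS and JUN families) and by TEAD proteins, the DNA-binding partners of the Hippo effectors YAP and TAZ. Genes that encode developmental transcription factors and signalling ligands often sit beside long stretches without genes that hold many such elements.

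The sequences at the centre of the highest region of Rybp, Adamts5, Zpld1, Zeb2 and Cxcl12, which are among the leading genes below, are given as examples of such elements, chosen by level and not for a motif. Each window covers 200 bases around the midpoint on the plus strand of mm10, read from the RefSeq copy of that assembly.
Rybp, chr6:100059921-100060120: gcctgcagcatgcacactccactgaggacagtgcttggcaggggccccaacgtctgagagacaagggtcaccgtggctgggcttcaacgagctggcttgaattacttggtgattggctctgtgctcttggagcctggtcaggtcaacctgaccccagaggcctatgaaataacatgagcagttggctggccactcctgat
Adamts5, chr16:86138079-86138278: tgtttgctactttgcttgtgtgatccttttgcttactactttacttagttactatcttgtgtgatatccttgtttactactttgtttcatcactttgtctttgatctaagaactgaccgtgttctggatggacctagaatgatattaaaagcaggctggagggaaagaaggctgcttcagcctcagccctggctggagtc
Zpld1, chr16:55551160-55551359: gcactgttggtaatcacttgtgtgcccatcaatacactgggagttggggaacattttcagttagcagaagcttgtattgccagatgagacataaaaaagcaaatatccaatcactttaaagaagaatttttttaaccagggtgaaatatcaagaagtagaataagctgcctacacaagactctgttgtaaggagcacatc
Zeb2, chr2:44977044-44977243: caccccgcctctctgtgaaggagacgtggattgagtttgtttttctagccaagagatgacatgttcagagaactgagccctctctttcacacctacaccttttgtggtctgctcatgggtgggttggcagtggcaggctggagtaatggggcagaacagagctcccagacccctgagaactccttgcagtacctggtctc
Cxcl12, chr6:117437744-117437943: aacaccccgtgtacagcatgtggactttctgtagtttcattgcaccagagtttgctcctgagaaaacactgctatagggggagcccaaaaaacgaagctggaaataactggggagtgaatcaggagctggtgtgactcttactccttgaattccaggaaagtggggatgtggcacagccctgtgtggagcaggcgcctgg
The levels of these 5 regions ran from 4.28 at Adamts5 to 5.58 at Zeb2, and their GC content from 38.5% at Zpld1 to 57% at Rybp.

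A further 5 windows, chosen after the values were seen, show the AP-1 site, the binding site of FOS and JUN dimers, in its setting. They are 80 bases long on the plus strand of mm10, with the site TGACTCA or its reverse complement in capitals, and come from the highest region with an AP-1 site in its central 200 bp at each of the 5 genes, among the 25 leading ones, with the largest share of such regions.
Klf4, chr4:56060168-56060247: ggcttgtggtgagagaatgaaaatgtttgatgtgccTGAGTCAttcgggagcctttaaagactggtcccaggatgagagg
Klf6, chr13:5837495-5837574: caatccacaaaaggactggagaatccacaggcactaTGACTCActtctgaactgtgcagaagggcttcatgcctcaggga
Tns3, chr11:8678394-8678473: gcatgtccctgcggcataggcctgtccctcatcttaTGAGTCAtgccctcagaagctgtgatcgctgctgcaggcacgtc
Runx1, chr16:92930263-92930342: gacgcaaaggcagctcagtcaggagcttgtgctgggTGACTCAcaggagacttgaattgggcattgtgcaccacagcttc
Tbl1xr1, chr3:21823135-21823214: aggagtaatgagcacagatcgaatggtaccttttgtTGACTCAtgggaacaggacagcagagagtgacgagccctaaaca
The region at Tns3 had a level of 4.95 and lay 13.5 kb upstream of the gene, and the region at Klf6 had a level of 4.35 at 23.5 kb upstream. The region at Tbl1xr1 reached 4.17 at 253 kb upstream, the region at Runx1 2.69 at 104 kb upstream and the region at Klf4 2.68 at 527 kb upstream. In these windows the site lay between 20 bp (Klf6) and 84 bp (Klf4) from the midpoint of its region.

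The regions were narrow and mostly of low level. Their width had a median of 410 bp with quartiles of 281 and 655 bp and reached 2475 bp at most, and 951 regions (5.07%) had the minimum width of 200 bp. Levels ranged from -1.11 to 6.77 log2 CPM around a median of 1.83, and the upper quartile was 2.77. A level of at least 4 was reached by 1430 regions (7.62%), and 118 regions lay below 0. The top 10% by level accounted for 39.5% of the CPM summed over all 18772. Together the regions covered 9.56 Mb, which was 17.0% of the length of the list but 11.4% of its summed CPM.

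Level and width went together across the regions (Pearson r of 0.895 between log2 width and level, Spearman coefficient of 0.905, across 18772 regions that share the same libraries). The median level was 0.63 among the 3206 regions of 200 to 250 bp and 4.13 among the 1523 regions wider than 1000 bp. A wider region also collects more cuts, so classes were compared within 19 bins of width as well.

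Compared with other regions of the list, those 10 to 100 kb away were close to intron regions and far below promoter regions. Intron regions (35454) had a median level of 1.89 and promoter regions (21537, within 1000 bp of a start) one of 3.89. Within bins of width the intergenic regions were 0.05 log2 CPM below introns, and lower in 18 of 19 bins, and 0.30 below promoters, and lower in all 19. Along the distance axis, the 11444 intergenic regions at 1 to 10 kb had a median level of 1.98, from which the 10 to 100 kb regions differed by -0.13 within width bins and were lower in all 19. The 1364 intergenic regions beyond 100 kb had a median of 1.52, and here the 10 to 100 kb regions were higher by 0.14 and higher in all 19 bins. These differences have no replicate error. Those within bins of width, apart from promoters at larger widths, are small beside the spread among the regions themselves.

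**Figure D1:**
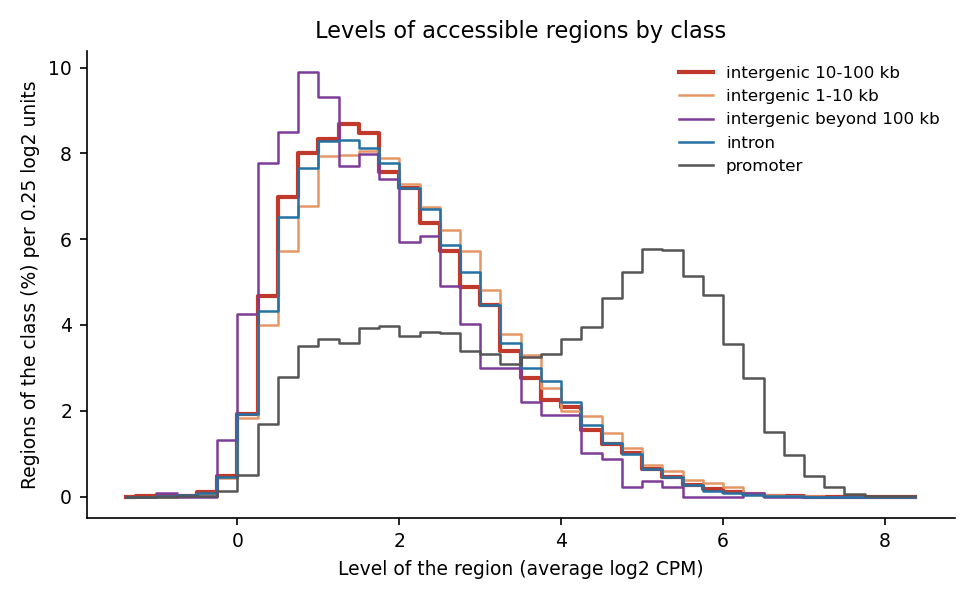
Distribution of levels (x axis, average log2 CPM, bins of 0.25) in 5 classes of accessible regions, with the share of each class on the y axis. The intergenic regions 10 to 100 kb from starts (median 1.83) overlay the intron regions (1.89), the regions beyond 100 kb lie to the left (1.52), and promoter regions have a broad peak at higher levels (median 3.89).

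Around the limits of the distance rule the values changed little at 10 kb. The 1037 intergenic regions at 9 to 10 kb had a median level of 1.85, and the 951 at 10 to 11 kb one of 1.95. At the outer limit, the 40 regions at 99 to 100 kb had a median of 1.83 and the 27 regions up to 1 kb further out one of 1.32.

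The density of regions fell with distance. Counted per Mb of eligible sequence, which is sequence without a gene at 10 to 100 kb from the nearest start, there were 28.9 regions at 10 to 20 kb (95% Poisson interval 28.3 to 29.6), 17.9 at 40 to 50 kb and 11.1 at 90 to 100 kb (9.98 to 12.4). In 9 steps of 10 kb, each step had a lower density than the nearer one, on all chromosomes and on the autosomes alone, where the density ran from 33.7 to 12.2 per Mb. The level fell less, from a median of 1.89 at 10 to 20 kb to 1.59 at 80 to 90 kb and 1.75 at 90 to 100 kb. The share with the CTCF motif went from 6.19% at 10 to 20 kb to 2.32% at 90 to 100 kb, while the share with an AP-1 site stayed between 12.7% and 17.7% in all 9 steps.

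**Figure D2:**
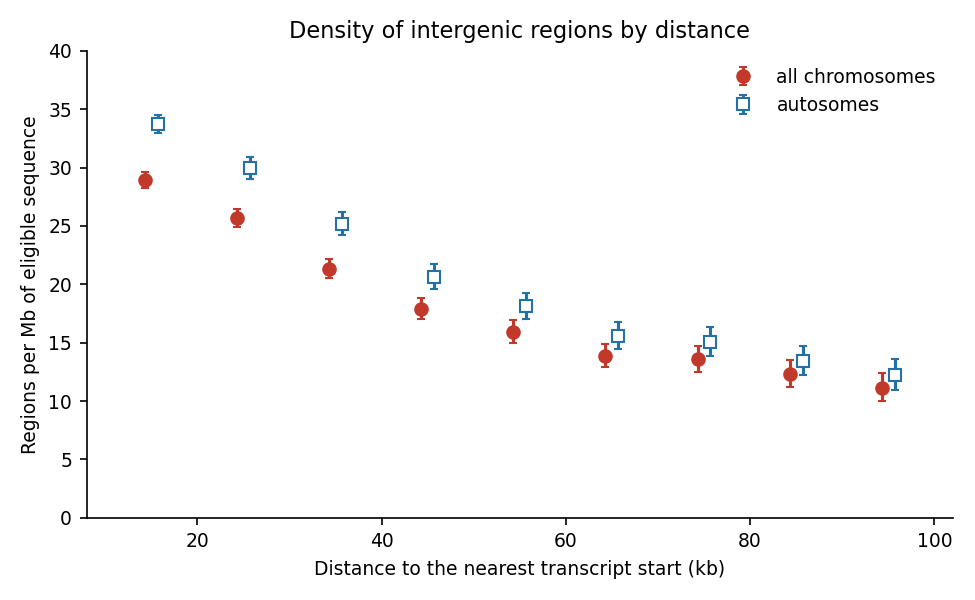
Intergenic regions per Mb of eligible sequence (y axis) in 9 steps of distance to the nearest transcript start (x axis, kb). Bars are 95% Poisson intervals for counting error only. The density falls from 28.9 to 11.1 per Mb on all chromosomes (filled) and from 33.7 to 12.2 on the autosomes (open).

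The regions lay upstream and downstream of coding genes in proportion to the eligible sequence there. Upstream of the nearest coding start lay 56.7% of them (10641 regions, 95% Wilson interval 56.0% to 57.4%), and 56.7% of the eligible sequence lay upstream too, so that the density was 21.98 per Mb upstream and 21.99 downstream. The transcript start nearest to a region belonged to a coding gene for 39.96% of regions, to a lincRNA for 20.6% and to a processed pseudogene for 20.1%. The median distance was 24.4 kb to the nearest start of any type and 46.6 kb to the nearest coding start, and 4911 regions (26.2%) were more than 100 kb from a coding start.

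Chromosomes differed in density. Chromosome 16 had 1394 regions, or 47.6 per Mb of eligible sequence (95% Poisson interval 45.2 to 50.2), against 24.4 per Mb on the other autosomes together. Its regions were also narrower (median 366.5 bp), lower (median level 1.53) and held an AP-1 site less often (10.1%) than the regions as a whole. Chromosome 11 followed with 41.4 and chromosome 19 with 37.5 per Mb. The X chromosome had 4.75 per Mb and the Y chromosome none in 53.6 Mb. Of all regions on chromosome 16, 23.8% were of this class, against 13.1% (chromosome 7) to 24.4% (chromosome 3) on the other autosomes. The excess was therefore not shown to be particular to this class. What sets chromosome 16 apart was not tested, and gene counts on it are marked as such below.

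Regions were spread unevenly over coding genes. Each region was given to the coding gene whose transcript start was nearest. Of 21938 coding genes, 5474 (25.0%) had at least 1 region, and 2089 of these had exactly 1, while 9721 had no eligible sequence and could have none. Among the 5950 genes with at least 20 kb of eligible sequence, 63.7% had a region. At least 10 regions fell to 361 genes (1.65% of coding genes), which held 28.3% of all regions, and at least 20 fell to 57 genes. Of the 361 genes, 41 were on chromosome 16, which holds 664 of the 21938 coding genes. The amount of eligible sequence around a gene was only loosely related to its count (Spearman coefficient of 0.216 across the 5950 genes with at least 20 kb of it, which are not independent).

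The 25 leading genes held 25 to 48 regions each, 756 in all or 4.03% of the regions. They stood beside long gene-free stretches, with a median of 380 kb of eligible sequence against 64.3 kb for the 5950 genes. Their density, which allows for the length of this sequence, had a median of 7.37 regions per 100 kb and exceeded the upper quartile of the 5950 genes (5.58) at 19 of the 25. Since the genes were picked for their counts, a high density was largely fixed by that choice, here and for the single genes below. The median level of their regions was 2.02 against 1.82 for all other regions, and 14.7% held an AP-1 site. A promoter region was present at 21 of the 25, compared with 64.1% of all coding genes, and at Gm26657 it was shared with the overlapping Actl7b. Of the 25, 5 were on chromosome 16, namely Adamts5, Zpld1, Runx1, Fam43a and Nfkbiz. A nearest start does not show which gene an element acts on, and target genes were not tested.

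**Figure D3:**
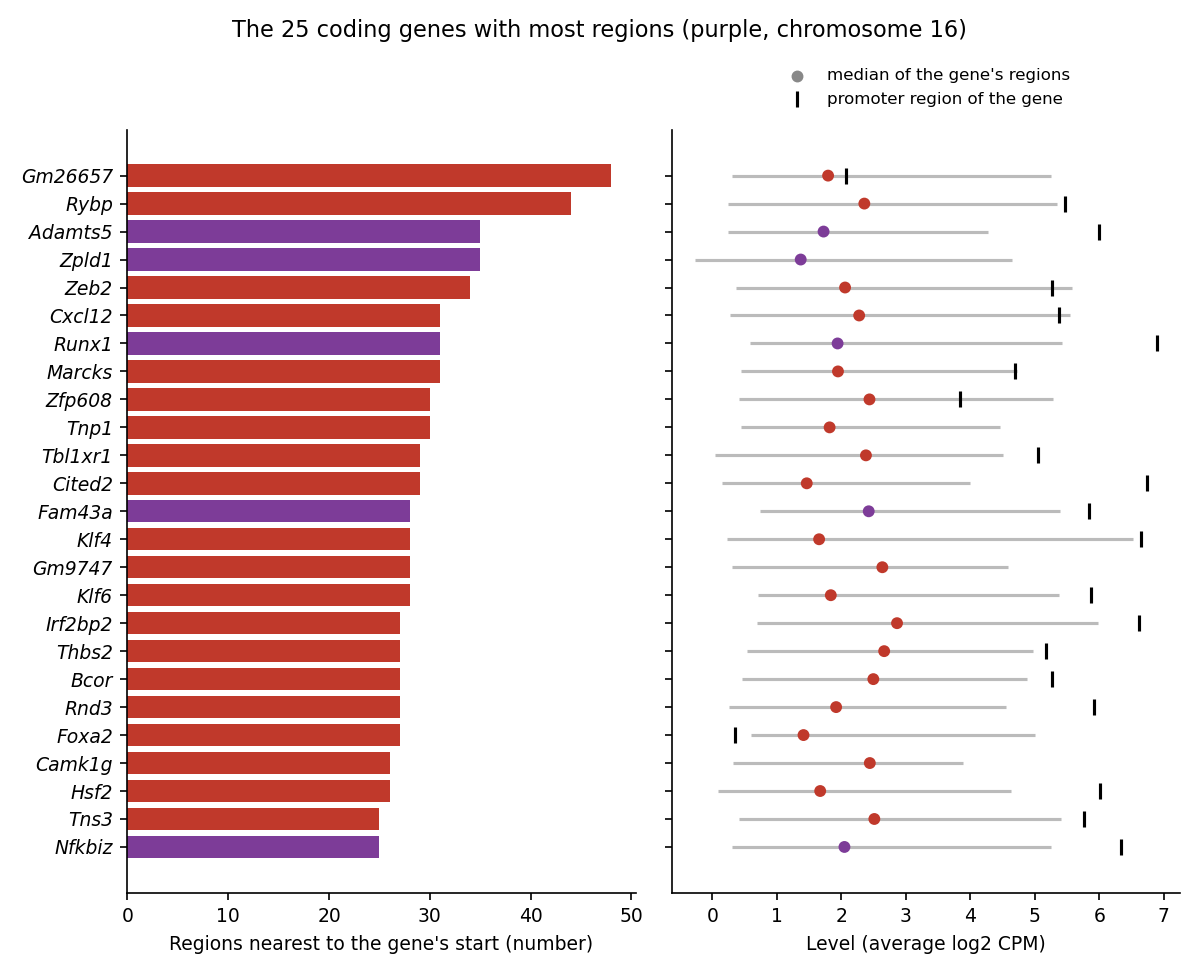
The 25 coding genes with most intergenic regions 10 to 100 kb from starts. Left, number of regions per gene (x axis). Right, level in average log2 CPM (x axis), with the median of the gene's regions as a point, their lowest and highest as a line, and the gene's promoter region as a tick. Genes on chromosome 16 are purple. Counts run, by nearest start, from 48 at Gm26657 to 25 at Nfkbiz, and gene medians from 1.37 at Zpld1 to 2.86 at Irf2bp2.

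Among the 25 genes were several that encode transcriptional regulators, and their share was not compared with that over all genes. Rybp, a subunit of Polycomb repressive complexes, had 44 regions with levels from 0.24 to 5.34 (median 2.36), of which 18 were upstream and 7 reached a level of 4. Zeb2, a zinc finger repressor of epithelial genes, had 34 regions (median 2.06, highest 5.58), 32 of them upstream and spread to 1539 kb from its start. Both genes had a promoter region, at 5.47 for Rybp and 5.27 for Zeb2. Rybp had 11.7 regions per 100 kb and Zeb2 3.81, both above the median of 1.66 for the 5950 genes.

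Runx1, a RUNX family factor of blood and skeletal development, had 31 regions on chromosome 16 (median 1.94, highest 5.43), 27 of them upstream, and 7 of the 31 held an AP-1 site. Its promoter region had a level of 6.89, the highest of the 25 leading genes. Zfp608, a zinc finger protein, had 30 regions with a median of 2.44. Tbl1xr1, a component of nuclear receptor corepressor complexes, had 29, all upstream, at 2.64 per 100 kb, the lowest density of the 25 but above the median of 1.66 for the 5950 genes. Cited2, a transcriptional coregulator that competes with HIF-1 alpha for the coactivators CBP and p300, also had all of its 29 regions upstream, at a median level of 1.46, beside a promoter region at 6.75. At Runx1, Tbl1xr1 and Cited2 the layout was thus one-sided, with 27 of 31, 29 of 29 and 29 of 29 regions upstream, whereas at Zfp608 18 of 30 were. For single genes, here and below, the side was not compared with the side on which their eligible sequence lies.

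The Kruppel-like factors Klf4 and Klf6 had 28 regions each and the largest AP-1 share of the 25 genes, with a site in 8 of 28 (28.6%). At Klf4 the levels ran from 0.23 to 6.52 around a median of 1.65, and at Klf6 from 0.71 to 5.37 around a median of 1.84. Irf2bp2, a corepressor that binds IRF2, had 27 regions with the highest gene median of the 25, 2.86, and 8 regions at a level of at least 4. Bcor, a BCL6 corepressor on the X chromosome, had 27 regions (median 2.49) although the X chromosome as a whole was sparse. Hsf2, a heat shock factor, had 26 regions, all upstream, with a median of 1.67. Nfkbiz, a nuclear regulator of NF-kappa B, had 25 regions on chromosome 16, all downstream of its start, with a median of 2.05.

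Foxa2, a forkhead factor of endoderm and liver, differed from the other regulators. It had 27 regions with a median level of 1.41 and a highest level of 5.00, while its promoter region had a level of only 0.34, the lowest among the 21 leading genes with one. Of its 27 regions, 15 were flanked by Foxa2 and Sstr4 and 12 by Foxa2 and Pax1, a paired-box factor of the axial skeleton.

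A second set encoded secreted, matrix or signalling proteins. Adamts5, an aggrecan-degrading metalloproteinase, had 35 regions on chromosome 16, all upstream (median 1.72, highest 4.28). Cxcl12, a chemokine produced by stromal cells of bone marrow, had 31 regions, of which 28 lay downstream of the start and 8 reached a level of 4 (median 2.28, highest 5.54). Thbs2, the matrix protein thrombospondin 2, had 27 regions in only 167 kb of eligible sequence, which made 16.2 per 100 kb, the highest density of the 25. These 3 genes all had promoter regions above 5, at 5.99 for Adamts5, 5.38 for Cxcl12 and 5.17 for Thbs2.

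The remaining leading genes were of other kinds. Marcks, an actin-linked substrate of protein kinase C, had 31 regions (median 1.95), and Rnd3, an atypical small GTPase, had 27 (median 1.92). Tns3, a focal adhesion tensin, had 25 regions with a median of 2.51 and an AP-1 site in 6 of 25 (24%). Fam43a on chromosome 16 had 28 regions, all downstream, at 15.5 per 100 kb and with the smallest AP-1 share of the 25 (3.57%). No promoter region was listed for Zpld1 (35 regions), Tnp1, a sperm chromatin protein (30 regions), Gm9747 (28 regions) or Camk1g, a calcium-dependent kinase (26 regions).

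For several of these genes the regions lay between the named gene and a neighbour with a promoter region. All 48 regions of Gm26657, a predicted coding gene overlapping Actl7b, were flanked by Actl7b and Klf4, and the promoter region of Klf4 had a level of 6.65 against 2.07 for Gm26657. The count of Gm26657 rested on the nearest start, and it was 0 both by nearest gene body and by flanking genes, where Klf4 had 27 and 77. All 28 regions of Gm9747, which overlaps Irs1, an adaptor of insulin signalling, were flanked by Irs1 (promoter level 7.16) and Nyap2. All 26 regions of Camk1g were flanked by Plxna2 (6.16), a semaphorin receptor, on the other side, and 23 of the 30 regions of Tnp1 by Tns1 (6.20). All 26 regions of Hsf2 had Gja1, the gap junction protein connexin 43 of bone cells, as their other neighbour (4.85), although the promoter region of Hsf2 itself was higher (6.00), and 23 of the 35 regions of Zpld1 had Nfkbiz (6.34).

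Counted by the interval between neighbouring coding genes, without choosing a gene, the order was led by the stretch from Klf4 to Actl7b. This interval, chr4:55532467-56740004, is 1208 kb long and held 73 regions with levels from 0.23 to 6.52 (median 1.79), of which 14 (19.2%) had an AP-1 site. Next came Adamts5 to N6amt1 with 56 regions, Runx1 to Setd4 with 50 and Zpld1 to Nfkbiz with 48, all on chromosome 16. The interval from Gja1 to Hsf2 held 46 and that from Zeb2 to Acvr2a 40. The interval beside Tgfb2, from Lyplal1, held 38 regions at a median level of 2.45, and that from Prok2 to Rybp held 36 at 2.96. Of 4590 intervals with a region, 96 had at least 20 regions and together held 13.9% of all regions.

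Ranked by density instead of number, among the 2127 genes with at least 100 kb of eligible sequence (median 0.80 regions per 100 kb), Rxra led. Rxra, the retinoid X receptor alpha, had 20 regions at 17.4 per 100 kb, with a median level of 2.55, a highest level of 6.09 and an AP-1 site in 8 of 20. Mtss1, a membrane-bending actin regulator, followed at 16.9 per 100 kb, then Thbs2 at 16.2, Irf2bp2 at 16.04, Fam43a at 15.5 and Phlda1 at 15.3. Phlda1 had 23 regions, all downstream of its start, with a median level of 1.40.

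Many regions lay close together. The median gap to the next region was 14.3 kb, and 9055 regions (48.2%) had another within 5 kb. Joining neighbours at most 10 kb apart gave 10575 runs, of which 6484 were single regions and 41 had at least 10 regions. The longest by number had 17 regions over 62.2 kb, all nearest to Irf2bp2, with a median level of 2.03. A run of 16 regions over 83.7 kb at chr2:27764057-27847748 lay beside Rxra, with a median level of 3.32 and a highest of 6.09. Lgalsl, a galectin-like gene, and Mtss1 each had a run of 15. The run of 12 regions beside Tns3, at chr11:8674651-8709923, had the highest median level of the 15 largest runs, 4.27, and a highest level of 5.41.

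Genes of 14 lists were compared with all coding genes, of which 25.0% had a region. A gene needs eligible sequence to have one, and of the 5950 coding genes with at least 20 kb of it 3790 (63.7%) had a region, which is the share to read the lists against. Of 16 osteogenic transcription factors, 14 had a region nearest to them (95 regions, median level 1.92), with 53.0 regions per Mb of eligible sequence against 25.4 over the autosomes and 21.98 over all chromosomes. Runx1 on chromosome 16 held 31 of the 95 regions. After Runx1, Runx3 had 13 regions (median 1.99), Zfp521, a zinc finger modulator of RUNX2, had 13 (median 1.48) and the homeobox gene Dlx3 had 6 (median 2.90). All 11 with at least 20 kb of eligible sequence had a region. Of 30 mesenchymal and limb factors, 23 had a region (165 regions, 27.3 per Mb), as did 22 of the 24 with at least 20 kb. The density of the mesenchymal and limb list was close to that over the autosomes. Besides Zeb2 and Klf4, Osr1 had 16 regions with a highest level of 5.58, and Twist2 had 14 with a highest level of 4.97.

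Bone matrix and mineral genes numbered 22, of which 17 had a region (86 regions, 47.9 per Mb, median level 2.14). Col1a2, a chain of type I collagen, had 11 regions with a median of 3.00 and a highest level of 5.81. Tnfsf11, which encodes the osteoclast-inducing ligand RANKL, had 10 regions (median 2.29, highest 4.94), 9 of them upstream, beside a promoter region of only 1.94. Its decoy receptor Tnfrsf11b (osteoprotegerin) had 9 regions (median 2.38), 4 of them with an AP-1 site. The phosphate and pyrophosphate transporter gene Ank had 9 (median 2.29) and the matrix protein gene Postn had 9 (median 1.80), which tied with Tnfrsf11b. Of the 18 genes with at least 20 kb of eligible sequence, 17 had a region, and 4 genes of the list had no eligible sequence at all.

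Among 25 genes of the HIF pathway and hypoxia response, 13 had a region (63 regions, median level 2.15), and eligible sequence around these genes was short (0.75 Mb), which gave 84.0 per Mb. Vegfa, the angiogenic growth factor, had 12 regions (median 2.12, highest 4.14). Epas1, which encodes HIF-2 alpha, had 9 (median 2.08) and Hif1a 7 (median 2.12, highest 4.68), all 7 upstream. Egln3, which encodes the prolyl hydroxylase PHD3, had 8 regions with a low median of 1.22. With at least 20 kb of eligible sequence, 8 of 11 had a region, and 9 of the 25 had no eligible sequence.

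Signalling genes followed. Of 31 Wnt genes, 25 had a region (127 regions, 63.2 per Mb, and a region at 22 of the 24 with at least 20 kb), led by the effector Tcf7l2 with 17 (median 1.36), the secreted antagonists Sfrp2 with 15 (median 1.93, all upstream) and Sfrp1 with 11 (median 1.87, highest 5.58), and the feedback inhibitor Axin2 with 10 (median 0.72). Of 30 BMP and TGF-beta genes, 20 had a region (154 regions, 53.4 per Mb), as did 19 of the 21 with at least 20 kb. Tgfb2 had 22 regions, all downstream of its start, with a median of 3.12, and the activin subunit genes Inhba and Inhbb had 21 and 15 with medians of 1.49 and 1.94. Bmp2 had 11 (median 2.12). Of 19 FGF genes, 10 had a region (67 regions, 22.1 per Mb), led by Flrt2 with 19, the feedback inhibitor Spry2 with 12 and Fgfr2 with 12. The FGF density was below that over the autosomes, and 9 of the 13 genes with at least 20 kb had a region.

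Of 13 AP-1 subunit genes, 4 (30.8%, against 25.0% of all coding genes) had a region (18 regions, 85.8 per Mb over 0.21 Mb of eligible sequence), namely Fos (9 regions, median 2.64, highest 6.08), Jun (5, median 0.88), Fosl2 (3) and Batf (1). All 3 with at least 20 kb had a region. The other 9 had between 0 and 12.2 kb of eligible sequence, so that their counts of 0 were largely set by the rule. Of 18 Hippo pathway genes and TEAD targets that were found in the annotation, 7 had a region (40 regions, 31.5 per Mb), as did 5 of the 6 with at least 20 kb. The cofactor Vgll3 had 14 on chromosome 16 (median 1.085), and the YAP targets Ccn2 and Ccn1 had 11 and 8 with medians of 1.85 and 2.68. Amot had 3. Of 21 adipocyte and chondrocyte genes, 13 had a region (50 regions, 39.3 per Mb), as did all 9 with at least 20 kb, led by the chondrocyte regulators Sox9 with 14 (median 2.47) and Sox5 with 8 (median 2.42), then Ebf1 with 7 and Lpl with 5.

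Lists for cells that the cultures should not hold gave mixed values. Of 20 blood cell genes, 7 had a region (24 regions, 13.8 per Mb), with 7 each at Ebf1, which is also in the adipocyte list, and Ptprc, then 3 each at Pax5 and Bcl11a. Of 20 neuron genes, 10 had a region (28 regions, 23.2 per Mb), led by Dlx2 with 9 and Eomes with 5, then Syt1 and Rbfox3 with 3 each. Of 16 skeletal muscle genes, 4 had a region (12 regions, 27.9 per Mb), with 6 at Pax3, 3 at Des, 2 at Pax7 and 1 at Mb. Of 20 epithelial and liver genes, 9 had a region, and 27 of their 56 regions were at Foxa2. Trp63 had a further 14 on chromosome 16, Krt8 had 4 and Epcam 3. The epithelial and liver density of 76.3 per Mb rested on 0.73 Mb of eligible sequence. Of the genes with at least 20 kb of eligible sequence, 5 of 6 had a region in the blood list, 9 of 13 in the neuron list, 2 of 5 in the muscle list and 4 of 5 in the epithelial and liver list. Many defining genes of these cell types, among them Spi1, Neurod1, Myod1, Myog and Hnf4a, had little or no eligible sequence, so that their counts of 0 do not bear on the cell type. The presence of other cells in the cultures was not tested.

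Genes with a more accessible promoter had more regions around them. Among the 5950 genes with at least 20 kb of eligible sequence, those without a promoter region had 9.35 regions per Mb. Those with one were split into 4 equal groups by promoter level, and the density was 18.9, 27.1, 33.0 and 33.7 per Mb from the lowest to the highest group. On the autosomes alone these densities were 13.1 without a promoter region and then 19.8, 27.8, 34.3 and 34.0. The median level of the regions did not follow the same order, with 1.68 at genes without a promoter region and then 1.61, 1.83, 1.97 and 1.83. Promoter and distal values come from the same libraries, and the cause of the relation was not tested.

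The highest regions were wide. The highest, at 6.77, was chr15:85634293-85635262, 970 bp wide and 51.8 kb upstream of Wnt7b, a Wnt ligand, with a GC content of 62.6%. Others among the 10 highest lay upstream of Tacc1 (6.56), Chd7 (6.54) and Klf4 (6.52). The region at Klf4, chr4:55650877-55652184, was 1308 bp wide and 118 kb upstream of its start. They were followed by regions near Eif2b2 (6.48), Arsi (6.48), Slc6a7 (6.47), Cyb5b (6.41) and Zfp395 (6.41). The widths of these 10 regions ran from 970 to 2475 bp and the GC content reached 62.6% at most. None of the 10 held an AP-1, TEAD or CTCF motif in its central 200 bp, where 14.2%, 5.11% and 5.30% of all 18772 regions did. An AP-1 site elsewhere in the region was held by 3 of the 10, and 24.2% of all 18772 had one at any position. In the RefSeq annotation, which was not used for the rule, 4 of the 10 (those at Wnt7b, Tacc1, Chd7 and Cyb5b) overlapped a lncRNA. Of all 18772 regions, 14.3% overlapped a RefSeq gene of any type.

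The AP-1 site stood out among the motifs searched. TGACTCA on either strand was present in the central 200 bp of 2675 regions, or 14.2% (95% Wilson interval 13.8% to 14.8%), against 3.08% (2.91% to 3.27%) of 35371 flanking windows of the same length 10 kb to either side, a ratio of 4.62. Over all 94963 regions the share was 12.1%. It was 14.2% in introns, 13.4% in intergenic regions at 1 to 10 kb, 15.1% beyond 100 kb, 10.98% in exons and 6.05% in promoters, so that the regions 10 to 100 kb away and introns had the same share at this rounding and promoters a lower one.

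The CTCF motif CNAGGNGGC, part of the site of the insulator protein, came next with 5.30% of regions against 1.61% of flanks, a ratio of 3.29, and was in 5.97% of all regions. The SP/KLF motif GGGCGG was in 4.85% against 2.07% of flanks and in 12.2% of all regions. The RUNX motif TGTGGTT was in 9.48% against 4.76% and in 8.57% of all regions. The TEAD motif ACATTCC was in 5.11% against 2.74% and in 4.69% of all regions. These 4 motifs had ratios between 1.86 and 3.29, all below that of AP-1.

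Among the other motifs, the E-box CAGCTG was in 15.03% of regions against 8.18% of flanks (14.97% of all regions) and the E-box CATCTG in 18.3% against 15.6% (16.5%). The C/EBP motif TTGCNNAA was in 11.9% against 8.53% (9.79%), and the core of the HIF response element, ACGTG or GCGTG, in 18.8% against 15.1% (24.2%). The ETS motif CCGGAAG was in 1.14% against 0.65% (2.26%). The cyclic AMP response element, which differs from AP-1 by an added base in the middle, was in 0.29% against 0.13% (0.37%), the glucocorticoid response element in 0.39% against 0.37% (0.40%), the full NFI site in 6 regions, and the HNF4 motif in 0.24% against 0.29% (0.27%). Below their flanks lay the GATA motif AGATAA at 8.20% against 12.0% (6.82%), the homeodomain motif TAATTA at 3.97% against 6.04% (3.32%) and, by a small margin, the SOX motif ACAAAG at 16.6% against 17.4% (15.3%). All motifs were searched on both strands, and motifs of similar letters can overlap. The central windows had a median GC content of 48.5% against 44.0% in the flanks, and 14.1% against 32.9% masked bases. The flanks were not matched for either, so that a part of base composition in these differences was not tested. A motif match is not evidence of binding.

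**Figure D4:**
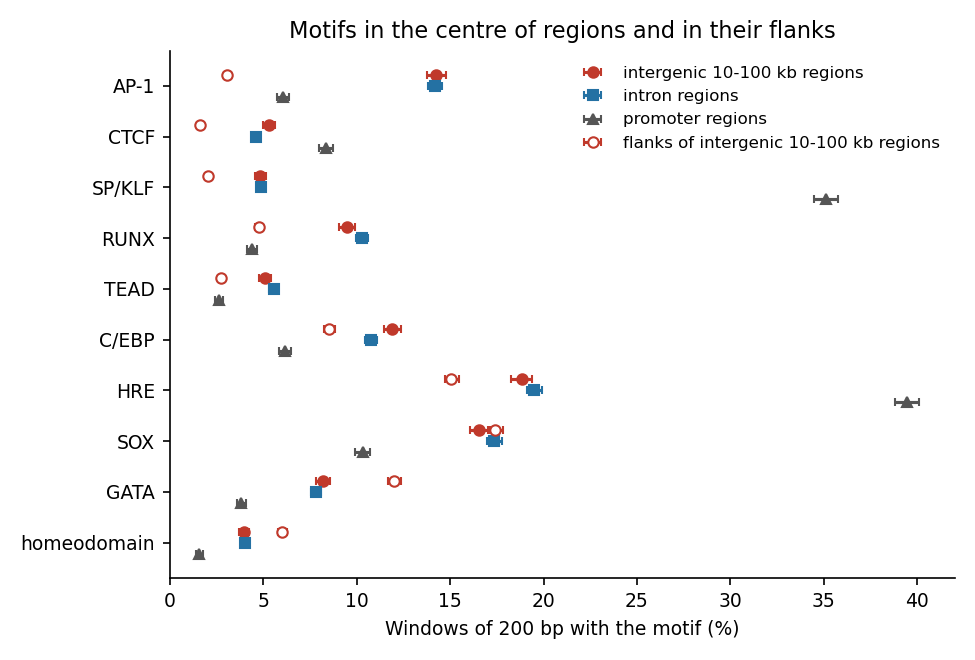
Share of 200-bp windows (x axis, %) with each of 10 motifs (y axis) in the centre of intergenic 10 to 100 kb, intron and promoter regions, and in the flanks of the intergenic regions. Bars are 95% Wilson intervals for counting error only. AP-1 has the widest gap between intergenic regions (14.2%) and their flanks (3.08%), while GATA is lower in regions (8.20%) than in flanks (12.0%).

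Motif sites were concentrated at the midpoint. In the central 80 bp there were 94.2 AP-1 sites per 1000 regions per 100 bp, against 19.4 in the outer 100 bp of a 1000-bp window, a ratio of 4.86. The ratio was 3.74 for CTCF, 2.46 for RUNX and 2.24 for TEAD, and 0.68 for GATA. Since the median region was 410 bp wide, the outer part of the window lay outside most regions.

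**Figure D5:**
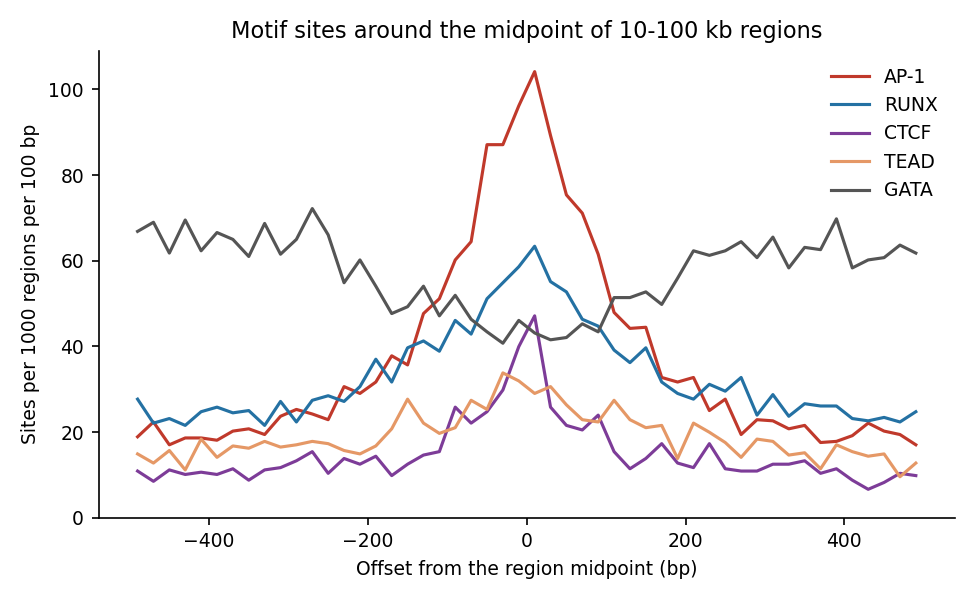
Motif sites per 1000 regions per 100 bp (y axis) by offset from the region midpoint (x axis, bp, steps of 20 bp). AP-1 rises to the highest point at the midpoint (94.2 on average in the central 80 bp, against 19.4 at the edges), RUNX, CTCF and TEAD rise less, and GATA dips (42.9 against 63.4).

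AP-1 sites were not confined to the highest regions. When the regions were put into 5 equal groups by level, the AP-1 share was 10.3%, 15.1%, 15.4%, 14.5% and 16.01% from the lowest to the highest. Regions with a site had a median level of 1.93 and those without one of 1.81, with median widths of 399 and 413 bp. Regions with SP/KLF had a median level of 2.19 against 1.81 without, and median widths of 454 against 408 bp. The 55 regions with the cyclic AMP response element had 2.21 against 1.83, and widths of 462 against 410 bp. Regions with CTCF had 1.81 against 1.83, and widths of 345 against 414 bp. These levels were not compared within bins of width, so that a part of width in them was not tested. AP-1 and TEAD were found together in 113 regions (0.60%), where the product of their shares was 0.73%, and AP-1 and RUNX in 234 (1.25%, product 1.35%). At least 2 AP-1 sites were present in 247 regions.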

How the data were processed

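ATAC-seq of 11 MPC2 cultures in 4 groups was used. As stated by the authors and in the submitters' processing notes, reads were aligned to mm10 with Bowtie2, duplicates removed with Picard 2.17.8, peaks identified with MACS2 2.2.7.1 and merged across samples, blacklisted regions removed, and cuts per region normalised and tested with edgeR 3.24.3. A Tn5 offset is not given in the sources used here. The deposited file held 94963 merged regions with 1 value each, read as the average log2 CPM because 460 values lay below 0 and the values, taken as log2, summed to 1012760 CPM over the list. The depth per culture was unknown, so precision is limited to counting error. A library removed by the authors was not analysed here.

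Regions overlapping no GENCODE vM21 gene, with an edge above 10 kb and at most 100 kb from the nearest transcript start, were selected and given to the coding gene with the nearest start. Eligible sequence is called, gene-free sequence at these distances. Motifs were counted in the central 200 bp and in flanks 10 kb away that overlapped no region and had no unknown base. Coordinates are mm10 and 1-based, and sequence is from the RefSeq copy of GRCm38. Width bins needed at least 20 regions of the other class. Intervals are 95% Wilson or Poisson. The distance, overlap and motif searches were checked on simulated intervals and sequences. Python 3.11.15, numpy 2.4.6, pandas 2.3.3, scipy 1.17.1 and matplotlib 3.10.9 were used.

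The named genes were the 25 coding genes with most regions (ties by summed CPM), up to 4 genes with most regions of each of 14 gene lists (5 in the bone matrix list, where 3 tied), and the nearest gene of the 10 highest regions. Sequences were the highest region of the 6 leading genes. Of these sequences 1, and of the 10 highest regions 1, are not reported here. Genes without a region, intervals, densities, runs and the AP-1 windows were named after their values were seen. The regions and lists were chosen with earlier results of these data known, and no test was made. Alternatives covered width, joining, chromosomes, distance, annotation, motif, window, gene assignment and scale.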

Additional observations from a re-analysis of the deposited data

How the results depend on the processing

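No paired analysis was possible because regions carry a pooled value only. The list has no replicate error, inherits the authors' thresholds, and ties a region to a gene by distance only. Across the alternatives, 30 values stayed within the counting interval or, for counts, within 1.5 times the reported one, and 22 moved by more, and no test was made. Regions at least 500 bp wide numbered 7245, with a median level of 3.03, 8.48 per Mb, an AP-1 share of 13.1% and 46 genes with at least 10 regions. Joining regions within 500 bp gave a median level of 1.90 and 20.8 per Mb. The density was 21.1 per Mb without chromosome 16 and 25.4 on autosomes only. With coding genes and their starts only, the median level was 1.93, the density 36.7 per Mb and the upstream share 58.7%. Above 20 kb there were 11531 regions, with a median level of 1.78, 19.1 per Mb, an upstream share of 55.6% and 215 genes with at least 10 regions. The AP-1 share was 24.2% over whole regions and 17.9% with the looser letters TGANTCA. The median level per kb of width was 3.11. Giving a region to both flanking coding genes raised the genes with at least 10 regions to 1054. Leaving out regions over a RefSeq gene, an alternative chosen after seeing the data, gave an upstream share of 55.8%. The upstream share was compared with that of the eligible sequence only under the rule itself. Of the 25 leading genes, 13 reached the count of the 25th gene (41) when both flanking genes were credited, and 20 did so by nearest gene body (25), where, as with flanking genes, Gm26657 and Gm9747 had 0, because each overlaps another coding gene whose body reaches nearer. Of the 5 chromosome 16 genes, all drop out without that chromosome by construction.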

Other observations

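A small group of the intergenic regions resembled CpG islands in base composition. With a GC content of at least 55% and an observed over expected CpG ratio of at least 0.6, 112 regions (0.60%) met this description, with a median level of 2.79 against 1.82 for the others and a median width of 583 against 409 bp. The CTCF motif was in 15.2% of them against 5.24% of the others, and the AP-1 site in 2.68% against 14.3%. In promoter regions, 41.0% met the same description. No transcript start within 10 kb was annotated for any of the 112 by the rule, and whether unannotated starts lie there was not tested.

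The regions were poor in repeats. Soft-masked bases made up 14.1% of their central 200 bp, 32.9% of the flanks and 43.7% of the eligible sequence as a whole. In 1302 regions (6.94%) at least 50% of the central bases were masked, and these had a median level of 1.19 against 1.88 and a median width of 315.5 against 420 bp. Their AP-1 share was 12.6% against 14.4%, and their CTCF share 3.15% against 5.46%. The median GC content was 48.5% against 44.0% in the flanks. Reads of low mapping quality had been discarded by the authors, and the parts of this step and of width in the lower levels were not tested.

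The choice of annotation decided whether some regions counted as intergenic. Of the 18772 regions, 2691 (14.3%) overlapped a gene in RefSeq, and these had a median level of 1.96 against 1.80 for the other 16081. Among the leading genes the loss was uneven. Without such regions Gm26657 kept 29 of 48, Zpld1 17 of 35, Tnp1 16 of 30 and Rybp 31 of 44, whereas Adamts5, Cxcl12, Runx1, Fam43a, Klf4, Gm9747, Irf2bp2, Thbs2, Camk1g and Tns3 kept all of theirs.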
